A study of Homo sapiens with 9 samples.

Results

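Glypicans and syndecans are the membrane-bound core proteins that carry heparan sulfate chains at the cell surface. All 6 human glypican genes (*GPC1* to *GPC6*) and all 4 syndecan genes (*SDC1* to *SDC4*) were taken by gene symbol, which gave 10 of the 60708 genes counted, and each had 1 row in the tables. The 9 RNA-sequencing libraries were all labelled as untreated MDA-MB-231 cells, a human triple-negative breast cancer line of the basal, mesenchymal type. Of these, 3 were WT, 3 were of the *SNAI1*-KO clone CS16 and 3 of the *SNAI1*-KO clone CS19, and the study compared the knockouts with WT to find genes that depend on *SNAI1*, a repressor of epithelial genes. The clones were made by transfecting guide RNAs against *SNAI1* with Cas9 and a repair plasmid, selecting with puromycin and expanding single cells, so each is 1 clone and its 3 libraries measure the spread between libraries of that clone only.

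Glypicans are held on the outer leaflet of the membrane by a glycosylphosphatidylinositol (GPI) anchor, whereas syndecans span the membrane and have a short cytoplasmic tail that binds adaptor proteins. The chains of both bind growth factors, WNT and Hedgehog proteins, chemokines and matrix proteins, and act as co-receptors or as a store for them. Chains are started on a linker sugar, extended by the EXT polymerases, sulfated in the Golgi and trimmed at the surface by the SULF enzymes.

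The libraries held 19527195 to 28627777 counted read pairs, and levels are given as CPM (library-size scaled counts, after TMM scaling), or as TPM (also scaled by exon length) where genes of different length are compared. The library WT-2 stood apart from the other WT libraries. The chi-square per degree of freedom was 224 and 267 between WT-2 and the others and 16.5 between WT-1 and WT-3, against 5.29 to 19.7 within the clones. The count of the targeted gene was not lower in the knockouts: *SNAI1* was at 0.789 to 2.17 CPM in the WT libraries, 1.27 to 1.95 in those labelled CS16 and 2.59 to 4.08 in those labelled CS19, and a whole-gene count does not test a partial deletion. The study itself reported lower mRNA of each *SNAI1* exon by RT-qPCR in both clones and no detectable SNAI1 protein. It also reported deletions in exon 2 and intron 2 from its aligned reads. The 3 genes *CDKN2A*, *CDKN2B* and *MTAP* on 9p21 had 0 counts in every WT library and summed to 164 to 182 CPM in the libraries labelled CS16 and CS19. The 10 basal mesenchymal breast markers summed to 6150 to 7060 CPM in WT, 537 to 577 in CS16 and 501 to 524 in CS19, with *CD44* at 0 counts in all 3 CS16 libraries and in 2 of 3 CS19 libraries. The 8 luminal breast markers, which share *KRT18* with the basal list, were also lower in sum. They were at 1550 to 2210 CPM in WT, 229 to 258 in CS16 and 253 to 273 in CS19. Most of the WT sum was *KRT8*, *KRT18* and *KRT19*, with means of 734.5, 562.4 and 417.9 CPM. Of 7 tested, 5 were called lower in both clones. *FOXA1* went the other way and was called higher in both, from 0.0342 CPM in WT to 3.35 in CS16 and 16.5 in CS19. *XBP1* was higher without a call, from 92.6 CPM to 181.7 and 174.4. The 8 embryonic kidney markers summed to 57.9 to 74.9 CPM in WT with 3 at 0, 353 to 374 in CS16 with 1 at 0, and 251 to 290 in CS19 with 0 at 0. The largest part of the clone sums was *LIN28B*, at 0 in WT, while *PAX8* was called lower in both clones, from 16.1 CPM in WT. *PAX8* had 0, 0 and 2 counts in CS19, and *PAX2* had 0 in WT and only 3 to 6 in each clone library. CS16 and CS19 below mean the libraries so labelled. Whether they come from the same line as the WT libraries was not tested, so in every comparison with WT the knockout and a difference in origin cannot be told apart.

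Glypicans and syndecans moved in both directions between WT and the clones. *GPC3*, *GPC4* and *GPC5* rose in both clones, *SDC1* and *SDC4* fell in both, and these 5 of 10 genes were called in each comparison with WT. A gene was called where edgeR's quasi-likelihood test gave an adjusted p below 0.05 and the log2 fold change was 2 or more in size. Over all genes tested, 11.8% were called higher and 15.3% lower in CS16, 12.0% and 14.4% in CS19, and 12.6% and 14.3% when the 6 *SNAI1*-KO libraries were compared with WT. By adjusted p alone, 10 of 10 members passed in CS16 against 55.6% of all genes, 9 of 10 in CS19 against 52.9%, and 10 of 10 in the 6 *SNAI1*-KO libraries against 63.7%. The CPM of the groups did not overlap for 10 of 10 members in CS16, CS19 or the joined comparison, where 67.4%, 65.3% and 58.3% of all genes did not overlap. These comparisons share the 3 WT libraries and are not independent of each other. The joined comparison took the 6 libraries of both clones as a single group, without a term for the clone. Its p-values thus count libraries of the same clone as separate replicates.

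*GPC3*, a glypican known from fetal tissues and liver cancer, whose loss causes an overgrowth syndrome, was not counted in WT and was the member that differed most between the clones. It lies on the minus strand of the X chromosome (GRCh38 X:133535745-133985594) with 2870 exon bases. *GPC3* had 0 counts in WT-1, WT-2 and WT-3, which allows at most 3 counts or 0.148 to 0.171 CPM in a library. Its CPM was 19.86, 19.04 and 17.23 in CS16-1 to CS16-3 and 82.25, 85.77 and 91.39 in CS19-1 to CS19-3. All clone libraries were thus above WT, and all CS19 libraries above all CS16 libraries. Against the highest WT floor of 3 counts per library, *GPC3* was at least 109-fold higher in CS16 (adjusted p = 2.64e-05), at least 505-fold higher in CS19 (adjusted p = 8.54e-06) and at least 307-fold higher in the 6 *SNAI1*-KO libraries (adjusted p = 6.7e-05).

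*GPC4*, a widely expressed glypican that binds WNT and FGF ligands, lies beside *GPC3* on the same strand (X:133300103-133415489), with 120 kb between them. *GPC4* also had 0 counts in all 3 WT libraries. Its CPM was 33.53, 30.64 and 28.93 in CS16 and 36.35, 36.64 and 36.4 in CS19. Every clone library was above WT, and the clones differed far less than they did for *GPC3*. The level was at least 181-fold higher in CS16 (adjusted p = 1.89e-05) and at least 213-fold higher in CS19 (adjusted p = 1.21e-05).

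*GPC3* and *GPC4* lie in a longer stretch of the X chromosome that had few counts in WT. Between *MBNL3* and *PHF6*, a stretch of 1883.3 kb whose bounds were chosen after the values were seen, 28 genes are listed. Of these, 12 had a count in a clone library, and their clone counts summed to 27609, whereas all 28 genes had 16 counts in the 3 WT libraries together. Nearly all of the clone counts were on *HS6ST2*, *GPC4* and *GPC3*, and the next highest gene, *CCDC160*, had 84 in CS16 and 70 in CS19. Of the WT counts, 12 were on *RPS24P19*, a ribosomal protein pseudogene within *GPC3* whose near-identical copies elsewhere make its counts uncertain. *HS6ST2*, which adds 6-O-sulfate to heparan sulfate and is the nearest tested gene to *GPC4* on its other side, had 1, 0 and 0 counts in WT and a mean of 103.1 ± 13.5 CPM (SD, n = 3) in CS16 and 102.9 ± 7.51 in CS19. The genes on either side were counted in WT, *MBNL3* at 27.1 CPM and *PHF6* at 100.4, with 75.2 and 256.8 in CS16 and 57.7 and 266.5 in CS19. Whether the DNA of this stretch differs between the libraries was not tested.

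**Figure D1:**
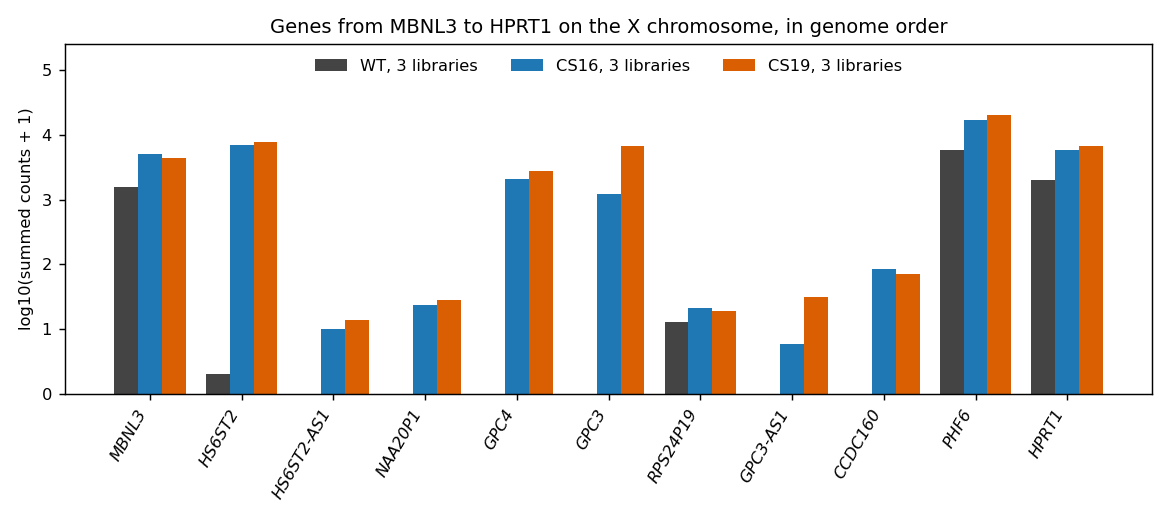
Counts summed over the 3 libraries of each group, as log10(summed counts + 1), for genes from *MBNL3* to *HPRT1* in genome order, shown where a group has at least 5 counts. WT bars are missing or near 0 from *HS6ST2* to *CCDC160* other than for the pseudogene *RPS24P19* (12 counts), and are present for *MBNL3*, *PHF6* and *HPRT1*.

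*GPC5* and *GPC6*, which lie next to each other on chromosome 13, were both higher in the clones, from very different levels. *GPC5* (13:91398621-92873682, plus strand), a glypican that binds Hedgehog proteins, had 0.0986, 0.285 and 0.205 CPM in WT, 2.40, 2.63 and 2.47 in CS16, and 4.68, 5.59 and 4.29 in CS19. The WT values rest on 2, 5 and 4 counts, so the size of the change is uncertain, but the groups did not overlap. Its log2 fold change was 3.68 ± 0.40 (SE) in CS16 (adjusted p = 0.000202) and 4.65 ± 0.39 in CS19 (adjusted p = 5.51e-05).

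*GPC6* (13:93226807-94408020, plus strand), which is known from skeletal growth, had close values in the WT libraries. Its CPM was 14.2, 13.75 and 12.94 in WT, 29.61, 26.15 and 30.28 in CS16, and 42.44, 47.61 and 43.44 in CS19. The 3 groups formed separate steps without overlap. The log2 fold change was 1.10 ± 0.18 (SE) in CS16 (adjusted p = 0.00145) and 1.74 ± 0.18 in CS19 (adjusted p = 0.000133), below the fold limit for a call. Of its 7122 exon bases, 7.175% are shared with a gene on the opposite strand, and strand was not used in the counting. *MIR17HG*, the host gene of a microRNA cluster 44 kb before *GPC5*, had log2 fold changes of 3.07 and 2.95.

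*GPC1*, the main glypican of many epithelial tumours, moved the other way. Its CPM (2:240435663-240468076, plus strand) was 70.28, 231.2 and 82.19 in WT, 32.9, 32.45 and 38.24 in CS16, and 32.72, 36.51 and 30.28 in CS19. All clone libraries were below all WT libraries, and WT-2 alone was 3.03 times the mean of the other WT libraries. *GPC1* had a log2 fold change of -1.86 ± 0.46 (SE) in CS16 (adjusted p = 0.0108) and -1.91 ± 0.46 in CS19 (adjusted p = 0.00952). Without WT-2 these became -1.14 (adjusted p = 2.03e-07) and -1.18 (adjusted p = 1.27e-08). Without WT-1 they were -2.15 and -2.22 and without WT-3 -2.08 and -2.13, past the fold limit.

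*GPC2*, a glypican of the developing nervous system (7:100169606-100177381, minus strand), was low throughout. Its CPM was 0.543, 1.48 and 0.667 in WT, 2.35, 4.01 and 2.79 in CS16, and 3.00, 2.04 and 2.55 in CS19. WT-2 was again the highest WT library, and the groups did not overlap. The log2 fold change was 1.80 ± 0.44 (SE) in CS16 (adjusted p = 0.0108) and 1.54 ± 0.42 in CS19 (adjusted p = 0.0174). Without WT-2 it was 2.32 and 2.08, past the fold limit, so that 6 of 10 members were then called in each clone.

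Per length, the glypicans of WT were mostly *GPC1*, and those of CS19 mostly *GPC3*. *GPC1* made up 87.7% ± 5.38 (SD, n = 3) of the summed glypican TPM in WT, 22.5% ± 2.30 in CS16 and 10.0% ± 0.953 in CS19. *GPC3* made up 27.6% ± 1.68 in CS16 and 59.2% ± 1.95 in CS19, and *GPC4* 26.5% ± 1.51 and 14.5% ± 0.412. *GPC6* stayed between 11.0% and 17.1% on average. The summed glypican TPM was 44.82, 130.4 and 40.38 in WT-1 to WT-3, 73.8 ± 11.0 in CS16 and 154.4 ± 15.1 in CS19. WT-1 and WT-3 were below every CS16 library and WT-2 was above every CS16 library, so the WT mean of 71.9 was close to that of CS16. Every CS19 library was above every other library.

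**Figure D2:**
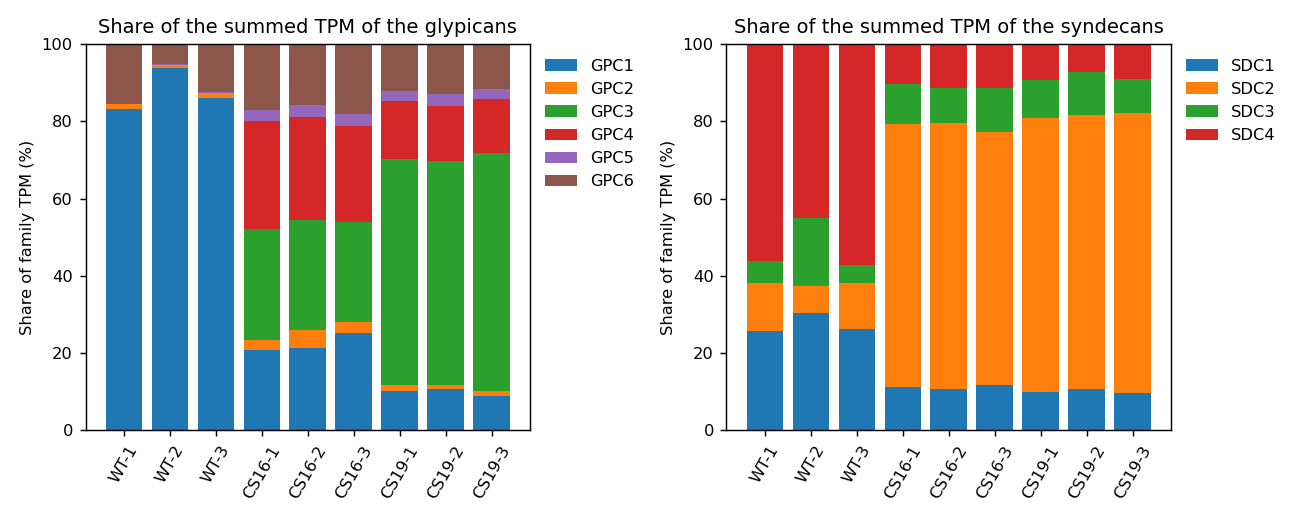
Share of each gene in the summed TPM of its family (y axis, %) in each of the 9 libraries (bars). *GPC1* fills 83.3% to 93.7% of the glypican bar in WT and *GPC3* 57.8% to 61.5% in CS19, and *SDC2* takes the place of *SDC4* as the largest part of the syndecan bar in both clones.

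Among the syndecans, *SDC1* and *SDC4* fell and *SDC2* was higher. *SDC3* was lower, with a size that depended on WT-2 and an adjusted p that varied between fits. Of the 10 members, 8 were searched for CAGGTG, the E-box that SNAI1 is known to bind, and for the GC box. Sequences before the starts of *SDC1* and *SDC3* are shown because they hold the E-box, and that of *SDC4* because it holds most GC boxes. They are the 250 bases before each start (RefSeq, GRCh38.p14, minus strand, 5′ to 3′), with CAGGTG or its reverse complement CACCTG in capitals for *SDC1* (chr2:20225476-20225725) and *SDC3* (chr1:30908759-30909008), and the GC box GGGCGG or CCGCCC in capitals for *SDC4* (chr20:45348425-45348674).
SDC1: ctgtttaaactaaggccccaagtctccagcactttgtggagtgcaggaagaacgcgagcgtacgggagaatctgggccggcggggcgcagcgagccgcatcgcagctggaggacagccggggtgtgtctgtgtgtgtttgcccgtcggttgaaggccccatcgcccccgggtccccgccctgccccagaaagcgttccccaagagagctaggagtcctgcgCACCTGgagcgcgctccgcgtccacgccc
SDC3: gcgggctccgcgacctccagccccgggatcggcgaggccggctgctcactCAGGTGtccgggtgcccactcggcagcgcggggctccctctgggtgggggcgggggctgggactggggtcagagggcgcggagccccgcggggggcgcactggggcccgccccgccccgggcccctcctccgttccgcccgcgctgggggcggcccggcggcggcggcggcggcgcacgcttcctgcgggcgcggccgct
SDC4: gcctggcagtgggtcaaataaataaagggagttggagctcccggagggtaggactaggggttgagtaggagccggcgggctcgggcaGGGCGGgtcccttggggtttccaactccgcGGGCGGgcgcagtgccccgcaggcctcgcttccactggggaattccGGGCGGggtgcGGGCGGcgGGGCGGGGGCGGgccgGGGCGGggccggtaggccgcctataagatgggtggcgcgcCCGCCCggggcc
From the RefSeq table, 9 starts of 8 of the 10 genes were used. *GPC3* and *SDC2* were not searched, so the counts below do not cover them. Both strands of the 250 bases were searched. The E-box was found before *SDC1*, at -29 from 1 of its 2 starts, and before *SDC3*, at -200, so in 2 of 8 genes, and 17.5% of the 35116 promoters in the table hold it. The GC box was found in 7 of 8 genes, the exception being *GPC6*, against 42.6% of all promoters. *SDC4* held 8 copies, some of them directly joined, and 0.58% of all promoters hold at least as many. These matches describe the letters and do not show binding.

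*SDC4*, a syndecan of focal adhesions that binds protein kinase C alpha through its tail, fell most among the syndecans. Its CPM (20:45325288-45348424) was 170.4, 162.3 and 203.9 in WT, 12.16, 13.17 and 12.41 in CS16, and 12.04, 9.713 and 12.96 in CS19. Each clone library was more than an order of magnitude below each WT library, and the clones overlapped. Its log2 fold change was -3.80 ± 0.18 (SE) in CS16 (adjusted p = 7.25e-06) and -3.91 ± 0.21 in CS19 (adjusted p = 8.26e-06).

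*SDC1*, the main syndecan of epithelial and plasma cells (2:20200797-20225433), followed the same course. It was at 108.3, 151.3 and 129.8 CPM in WT, 17.89, 17.23 and 17.78 in CS16, and 17.68, 20.03 and 19.41 in CS19. Both clones were well below WT and close to each other. The log2 fold change was -2.85 ± 0.19 (SE) in CS16 (adjusted p = 2.43e-05) and -2.73 ± 0.20 in CS19 (adjusted p = 2.88e-05).

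*SDC2*, the syndecan typical of mesenchymal cells (8:96493813-96611790), was the syndecan that was higher in the clones. Its CPM was 58.54, 39.47 and 65.56 in WT, 123.7, 125.4 and 112.04 in CS16, and 143.9, 150.4 and 164.1 in CS19. WT, CS16 and CS19 formed 3 steps that did not overlap. The log2 fold change was 1.17 ± 0.22 (SE) in CS16 (adjusted p = 0.00286) and 1.53 ± 0.22 in CS19 (adjusted p = 0.000886).

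*SDC3*, the syndecan of the nervous system and muscle (1:30869466-30908758), had 46.9, 173.2 and 46.36 CPM in WT. It had 32.16, 29.02 and 33.58 CPM in CS16 and 34.54, 40.72 and 34.4 in CS19. Clone libraries were below all WT libraries, but WT-2 was 3.72 times the mean of the other WT libraries. The log2 fold change of *SDC3* was -1.47 ± 0.53 (SE) in CS16 (adjusted p = 0.0467) and -1.25 ± 0.52 in CS19 (adjusted p = 0.0785). Without WT-2 it was -0.56 (adjusted p = 0.000193) and -0.33 (adjusted p = 0.0087). In CS16 it did not pass with the replicate block (adjusted p = 0.104) or without any 1 CS16 library (0.0979 to 0.139).

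**Figure D3:**
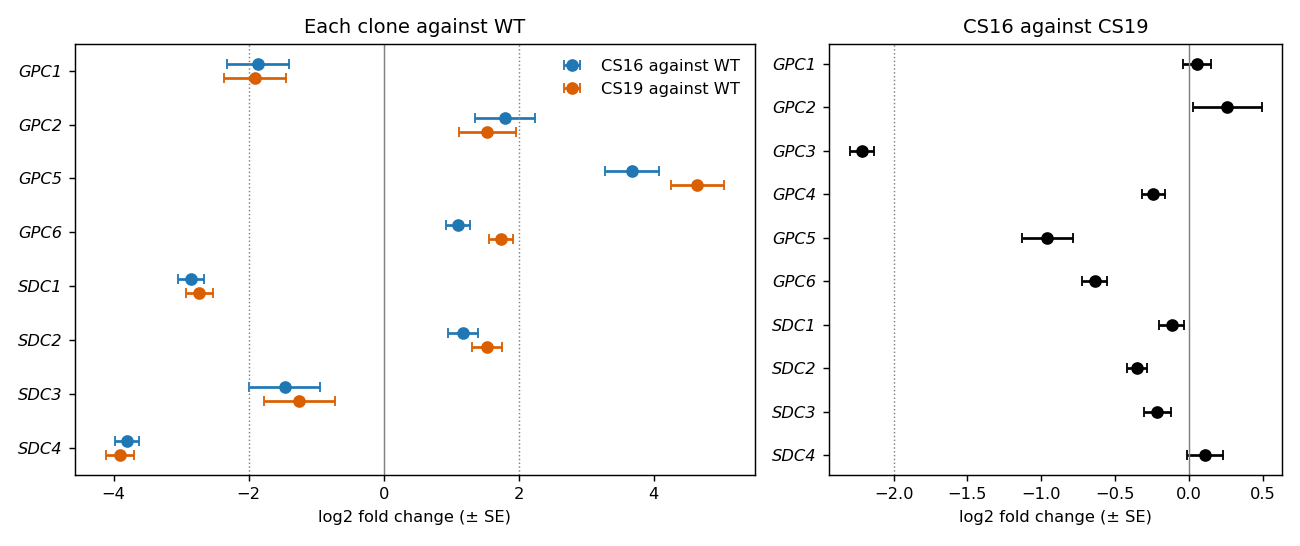
Log2 fold change (x axis) with its SE (bars) from edgeR, for each clone against the 3 WT libraries (left) and for CS16 against CS19 (right). Dotted lines mark the fold limit of 2 for a call. *GPC3* and *GPC4* are left out on the left, where WT is at 0, and on the right *GPC3* alone passes the limit, at -2.22.

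Per length, the syndecans fell as a sum and changed their leading member. The summed syndecan TPM was 418.3 ± 51.7 (SD, n = 3) in WT, 136.2 ± 18.4 in CS16 and 158.4 ± 11.1 in CS19. *SDC4* made up 52.7% ± 6.77 of it in WT, 11.0% ± 0.494 in CS16 and 8.47% ± 1.14 in CS19. *SDC2* made up 10.4% ± 2.93, 67.5% ± 1.73 and 71.5% ± 0.886. In WT, mean TPM ran from *SDC4* (218.3) and *SDC1* (115.7) through *GPC1* (64.7), *SDC2* (42.4) and *SDC3* (41.9) to *GPC6* (6.19), and *GPC2* and *GPC5* were below 2. From *SDC1* down to *SDC3* in that order the range of each gene overlapped that of the next, and *SDC4* stood clear above them. Without WT-2 the means were 36.0 for *GPC1*, 47.0 for *SDC2* and 20.5 for *SDC3*, so the place of *GPC1* above *SDC2* rests on WT-2. In CS16, *SDC2* (92.0) stood alone above *GPC3*, *GPC4*, *GPC1*, *SDC1*, *SDC4*, *SDC3* and *GPC6*, which lay between 20.4 and 12.6 with each range overlapping the next. In CS19, *SDC2* (113.3) and *GPC3* (91.3) stood apart from each other and from the 6 genes from *GPC4* (22.3) to *SDC4* (13.3), whose neighbouring ranges overlapped.

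CS16 and CS19 were also compared directly, to see how far the clones were alike. *GPC3* was called, lower in CS16 by a log2 fold change of -2.22 ± 0.08 (SE, adjusted p = 7.65e-10), where 0.496% of all genes were called lower and 0.633% higher. By adjusted p alone 5 of 10 members passed, against 27.4% of all genes, and each of the 5 was lower in CS16. Besides *GPC3* these were *GPC5* (-0.96 ± 0.17, adjusted p = 0.00096), *GPC6* (-0.64 ± 0.08, adjusted p = 8.45e-05), *SDC2* (-0.35 ± 0.07, adjusted p = 0.00219) and *GPC4* (-0.24 ± 0.08, adjusted p = 0.0409). *GPC4* did not pass in 10 of 14 alternatives, with adjusted p up to 0.605, and was at 0.122 with the replicate block, and in a fit of 3 groups neither *GPC5* (0.0711) nor *SDC2* (0.477) passed. Groups did not overlap for these 5 and for *SDC3* (adjusted p = 0.0996), and for 40.5% of all genes. *GPC1*, *GPC2*, *SDC1* and *SDC4* had log2 fold changes between -0.12 and 0.26 and did not pass.

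Other genes of heparan sulfate biology were described from 10 lists with 103 genes, chosen with earlier results of these data known. Of the genes tested, 15 of 93 were called higher and 30 lower in CS16 (16.1% and 32.3%), and 14 of 91 and 30 in CS19 (15.4% and 33.0%). Among all genes tested the shares were 11.8% higher and 15.3% lower in CS16, and 12.0% and 14.4% in CS19. The same shares apply to the counts of each list below. Without WT-2 the counts of list genes called were 15 higher and 28 lower in CS16 and 13 and 27 in CS19. The lists differed in direction. All 5 called genes among 6 other core proteins were lower in both clones, and the 7 genes that supply sulfate and sugar donors had 0 calls, with 4 at an adjusted p below 0.05 in CS16 and 3 in CS19.

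The other core proteins called lower in both clones were *AGRN*, *HSPG2*, *COL18A1*, *SRGN* and *CD44*. *CD44*, the hyaluronan receptor, fell from 663.9 ± 113.1 CPM (SD, n = 3) in WT and was at least 4510-fold lower in CS16 and 4870-fold lower in CS19. *SRGN*, the core protein of secretory granules, was at least 224-fold and 242-fold lower. *HSPG2* (perlecan) and *AGRN* (agrin), of basement membranes, had log2 fold changes of -5.98 ± 0.81 (SE) and -3.94 ± 0.63 in CS16, and WT-2 held most of their summed WT CPM. Without WT-2 these were -4.70 and -2.92, and *COL18A1* was no longer called, at -1.79 in CS16 and -1.23 in CS19.

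Chain synthesis was mixed. *EXT1*, a subunit of the polymerase, fell from 388.2 ± 15.4 CPM (SD, n = 3) to 71.4 ± 3.30 in CS16 and 70.3 ± 7.09 in CS19 (log2 fold changes -2.41 and -2.43), while its partner *EXT2* had -0.39 and -0.03 and did not pass. Of 7 linker genes, *XYLT1*, which starts the linker, rose from 0.0683 CPM to 7.25 and 3.99, and *PXYLP1*, a phosphatase of the linker, had log2 fold changes of 2.25 and 3.22, with 1.99 in CS16 without WT-2. The modifying enzymes went both ways, with 3 of 13 called higher and 4 lower in CS16 and 2 of 12 and 4 in CS19. Of those lower in CS16, *NDST1* was no longer called without WT-2, at a log2 fold change of -1.38. *HS6ST2*, described above, was at least 603-fold and 602-fold higher, and the 3-O-sulfotransferase *HS3ST3A1* rose from 0.906 CPM to 19.2 and 21.5 (log2 fold changes 4.45 and 4.63, and 5.96 and 6.15 without WT-2). *HS3ST1*, another 3-O-sulfotransferase, fell from 29.4 ± 2.47 CPM (SD, n = 3) and was at least 200-fold lower in CS16 and 216-fold lower in CS19. *NDST4*, an N-deacetylase and N-sulfotransferase, was the 1 gene of the 10 lists called between the clones, at 3.10 CPM in CS16 and 0.247 in CS19 (log2 fold change 3.66 ± 0.41, adjusted p = 2.24e-05).

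**Figure D4:**
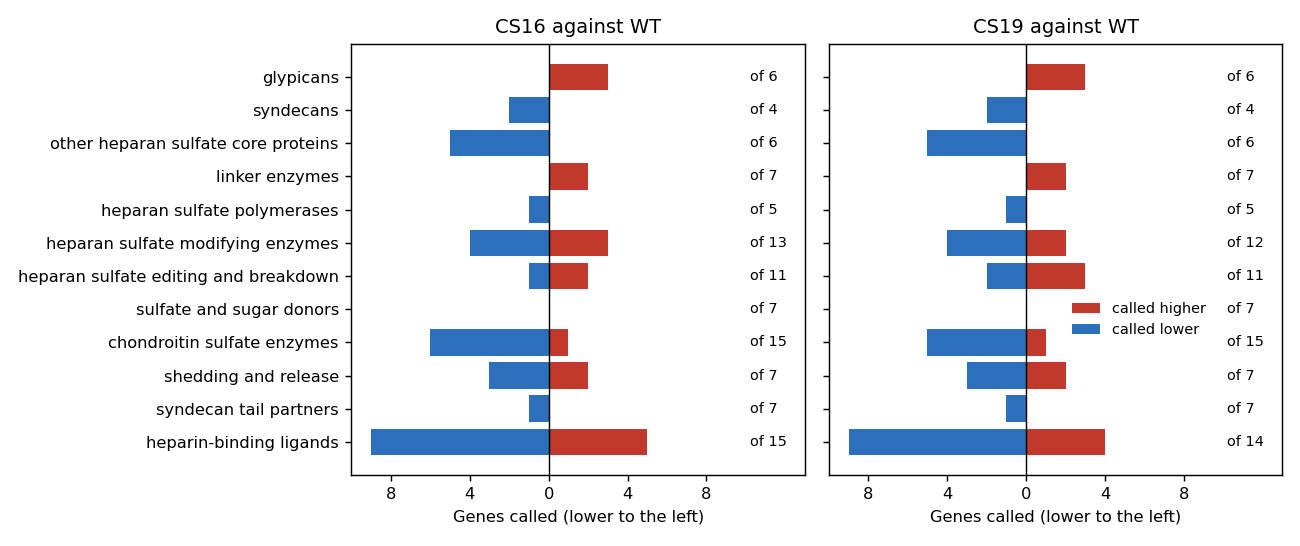
Number of genes called higher (red, to the right) and lower (blue, to the left) in CS16 and CS19 against WT for the glypicans, the syndecans and the 10 other lists, with the number tested at the right. Calls among other core proteins are all lower (5 of 6), and the heparin-binding ligands have most calls (9 lower, and 5 or 4 higher).

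Genes that edit or release the proteoglycans were also called in both directions. *SULF1* and *SULF2*, the extracellular 6-O-endosulfatases, both rose. *SULF1* had 0 counts in WT and was at 48.5 ± 6.71 CPM (SD, n = 3) in CS16 and 27.2 ± 2.33 in CS19, at least 284-fold and 159-fold higher. *SULF2* went from 1.10 ± 0.731 CPM to 69.9 ± 9.58 and 55.6 ± 8.28 (log2 fold changes 6.03 and 5.71, and 6.67 and 6.36 without WT-2). *IDUA*, a lysosomal iduronidase, was called lower in both, at -3.60 and -2.41, but was at -2.46 and -1.26 without WT-2, which ended the call in CS19. Of 7 tested genes of shedding and release, *MMP14*, a membrane protease that cleaves *SDC1*, fell from 660.3 CPM to 0.760 and 0.796, and *TIMP3*, a protease inhibitor, from 792.9 to 70.7 and 53.3. *MMP2* rose (log2 fold changes 5.06 and 4.17), as did *GPLD1*, a phospholipase that cuts GPI anchors (2.19 and 3.20). *PRKCA*, the tail partner of *SDC4*, was the 1 of 7 tail partners called and fell by 2.81 and 2.78 on the log2 scale.

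Heparin-binding ligands were called lower for 9 of 15 tested in CS16 and 9 of 14 in CS19, and higher for 5 and 4. *THBS1*, a matrix protein, fell from 2759 ± 698.5 CPM (SD, n = 3) to 1.09 and 2.57, and the growth factors *AREG* and *PTN* fell from 60.1 and 10.3 CPM. *WNT5A* had a mean of 0.0164 CPM in WT and rose to 50.1 ± 2.84 CPM in CS16 and 91.9 ± 5.59 in CS19. Of 15 tested chondroitin sulfate enzymes, whose chains syndecans can also carry, 6 were lower and 1 higher in CS16 and 5 and 1 in CS19. *CHST11*, *CHST15*, *CSGALNACT1* and *DSEL* were lower in both, with log2 fold changes from -2.93 to -6.05.

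For the members other than *SDC4*, the gene with the most similar pattern was found by Pearson correlation of log2(CPM + 1) over the 9 libraries among 19630 other genes. These libraries form 3 groups, so r mostly measures the differences between groups. *GPC3* was closest to *NELL2* (r = 0.9994), *GPC4* to *IRS4-AS1* (0.9998), *GPC5* to ENSG00000288062 (0.9982), *GPC1* to *BCAR1* (0.9988) and *GPC2* to *TLCD2* (0.9833). *GPC6* was closest to *GPLD1* (0.9983), *SDC1* to *F2RL3* (0.9995), *SDC2* to *SYT16* (0.9958) and *SDC3* to *NAPA* (0.9979). For *SDC1*, 2529 genes reached an r of at least 0.95, and for *GPC2* 54 did.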

How the data were processed

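After ribosomal RNA depletion the authors built stranded paired-end libraries. Reads were trimmed (Trimmomatic 0.36), mapped to GRCh38 (STAR 2.7.2b, per the submitters' processing notes) and counted as pairs on gencode release 38 with featureCounts 2.0.0 (both mates aligned, not chimeric, mapping quality of at least 30, strand not used). The deposited values were raw counts per gene. Symbols came from gencode release 44. Counts came without molecular identifiers, so floors cover counting error only.

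Genes passed filterByExpr, were scaled by TMM and tested with edgeR 4.0.16 (limma 3.58.1, R 4.3.3), with Benjamini-Hochberg adjustment over all genes tested. Each comparison had its own fit. SE was the log2 fold change over the root of F. TPM used the deposited exon lengths. Where all libraries of a group had at most 3 counts, folds are bounds against the highest floor of 3 counts per library of that group. Alternatives were DESeq2 1.42.0, RLE and upper-quartile scaling, other filters and fold limits, leaving out the 100 highest genes, a fit of 3 groups, the replicate number as a block and leaving out each library. The steps were first tested on simulated counts with known changes. The plots were drawn with matplotlib 3.10.9 in Python 3.11.15.

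Members and lists were chosen with earlier results of these data known. Named were all members, *SNAI1* and the 9p21 genes, from each list at most 4 genes with the largest change called in both clones and those called between clones, and for each member the gene most alike, which for *SDC4* is not reported here. *EXT2*, *COL18A1*, *NDST1*, the luminal markers *FOXA1* and *XBP1* and the genes around *GPC3* and *GPC5* were added after their values were seen. So were the markers *KRT8*, *KRT18*, *KRT19* and *PAX2*. The study describes its results in general as coming from independent biological repeats. Whether the replicates of these libraries came from separate cultures is not stated, so p-values measure the spread between these libraries. Reads, DNA and proteins were not analysed here.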

Additional observations from a re-analysis of the deposited data

Results flagged for a closer look

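In the 6 *SNAI1*-KO libraries, *SDC4* had a library far from the others. The lowest, CS19-2 at 9.713 CPM, was separated from the next by 0.673 of the whole range up to 13.17 CPM. Chance alone gives such a gap in about 1 in 20 groups, and 10 genes were examined.

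In the direct comparison of CS16 with CS19, 5 genes had an adjusted p below 0.05. The log2 fold change of CS16 against CS19 was -2.22 for *GPC3*, -0.96 for *GPC5*, -0.64 for *GPC6*, -0.35 for *SDC2* and -0.24 for *GPC4*. *GPC4* did not pass in 10 of 14 alternatives, with adjusted p up to 0.605, and *GPC5* (0.0711) and *SDC2* (0.477) did not pass in a fit of 3 groups. Each clone is 1 line, so a difference between clones and a difference between single cells they grew from cannot be told apart.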

How the results depend on the processing

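The counts of members called were 5, 5, 5 and 1 (CS16, CS19 and *SNAI1*-KO against WT, and CS16 against CS19) as reported, under the other tools, scalings and filters and with the replicate block. Leaving out a library gave 5 to 6 in each comparison with WT, with 6 where a WT library was left out, and 1 between the clones. The sixth was *GPC1* without WT-1 or WT-3 and *GPC2* without WT-2. With a log2 fold change of at least 1 they were 10, 9 and 10 against WT, with no limit again 10, 9 and 10, and with no limit 5 between the clones. Of 590 log2 fold changes of members under alternatives, 565 kept direction and side of the adjusted p of 0.05, whatever their fold, 18 lost it, 6 gained it and 1 reversed, *GPC1* in CS16 against CS19 at -0.02 without CS16-3 (-0.02 to 0.14 when each library was left out). *SDC3* lost its adjusted p in CS16 with the replicate block (-1.14, adjusted p = 0.104) and without any 1 CS16 library (0.0979 to 0.139). In CS19 it gained one with DESeq2 (0.0399), no filter (0.0165), a fit of 3 groups (0.0314) and without WT-1 (0.0441), WT-2 (0.0087) or WT-3 (0.0371). *GPC2* in CS19 lost it without WT-1 (0.0582) and without CS19-1 (0.0591). Between the clones *GPC4* lost it in 10 of 14 alternatives, with adjusted p up to 0.605 and 0.122 with the replicate block, and *GPC5* (0.0711) and *SDC2* (0.477) lost it in the fit of 3 groups. The cause was not tested. Deviations of same-numbered libraries correlated at -0.387 to 0.331, so the numbers were not taken as pairs.

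Over all genes, 5045, 4990, 5272 and 198 were called. With a log2 fold change of at least 1 these were 8567, 8309, 9251 and 833, with no limit 10342, 10014, 12506 and 4814, and with no filter 7513 in CS19, 8662 in *SNAI1*-KO and 352 between the clones. The order of levels by CPM in place of TPM kept 3 of 10 places in CS16 and 5 of 10 in CS19. At 2 to 5 WT counts, *GPC5* has a WT level limited by depth.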
